A study of Homo sapiens with 20 samples.

Results

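The HOXB cluster is a row of 10 homeobox genes on chromosome 17, and their contacts with chromatin of the same chromosome were measured in human pluripotent cells and in 2 lineages made from them. The 10 genes were HOXB1 to HOXB9 and HOXB13, from 48528526 to 48728750 on GRCh38, a span of 200 kb. A contact was assigned to the cluster where either of its ends overlapped a member's gene body widened by 1 kb. This gave 478 of the 182303 listed contacts within chromosomes, or 0.262%. In 337 of them the captured fragment, called the bait, lay at a HOXB gene. In 201 the fragment it met, called the other end, lay at a HOXB gene, and in 60 both did.

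In the assay, Poised Enhancer Capture Hi-C, DNA is crosslinked, cut with the enzyme DpnII, ligated, and enriched for ligation products of chosen fragments around poised enhancers. The 20 libraries covered 10 conditions with 2 libraries each, and the file held 1 interaction score per contact and condition. HNES1, an embryo-derived human stem cell line, was kept naive on mouse feeder cells with PD0325901, LIF, Gö6983 and XAV939. It was then moved to feeder-free medium with XAV939 and harvested at days 1, 3, 5, 7, 10 and 14, the last being the primed state. Day 14 cells were taken to definitive endoderm (DE) with Activin A, CHIR99021, FGF2, PI-103, BMP4 and heparin for 1 day and Activin A, PI-103, FGF2, LDN193189 and heparin for 2 days, or to neuroectoderm (NE) with A8301 and LDN193189 for 10 days followed by sorting for CD56 without EpCAM. H9, an established primed embryonic stem cell line, was grown in a different medium, so line and culture differ together in any comparison with it. All HNES1 conditions come from a single line, and cell identity could not be checked from marker genes because the assay measures DNA contacts and not expression. Scores of 5 or more were taken as calls. Since each condition had a single pooled value, conditions could not be tested against each other, read depth was unknown, and the 95% intervals given here cover counting error only. Contacts that share a fragment are not independent.

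HOX genes encode transcription factors that give cells their position along the head-to-tail axis. Genes at the HOXB1 end of the cluster are switched on early and act in the hindbrain, and those nearer HOXB13 act later and further back. In pluripotent cells the whole cluster is held silent under Polycomb, whose marks can draw silent regions together in the nucleus, and HOX clusters are among the best known examples of such regions.

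The promoter of HOXB1, the member that specifies a hindbrain segment and the facial nerve, is shown because a bait boundary falls inside it. The 300 bases around its start (chr17:48530962-48531261, minus strand, RefSeq on GRCh38.p14) are printed with the DpnII site GATC and the match to TGATNNAT, the shared HOX and PBX recognition motif, in capitals.
HOXB1: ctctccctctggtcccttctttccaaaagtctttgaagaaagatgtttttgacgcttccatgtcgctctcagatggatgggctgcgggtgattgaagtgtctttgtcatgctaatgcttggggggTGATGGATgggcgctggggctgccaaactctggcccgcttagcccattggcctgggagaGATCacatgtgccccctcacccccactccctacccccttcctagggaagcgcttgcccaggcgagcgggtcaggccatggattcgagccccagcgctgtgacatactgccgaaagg
The GATC lies at 48531074 to 48531077, and the file's bait from 48531074 to 48531603 begins at that base, next to the bait from 48530430 to 48531073. The TGATNNAT match reads TGATGGAT and lies at 48531129 to 48531136 in the outer bait. Searched on both strands of 35116 promoters of the same length, GATC was in 41.7% and TGATNNAT in 7.40%. Of the members, 1 had its promoter in the RefSeq table used.

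A pair of other-end fragments that took many of the contacts described here each hold the start of a non-member gene, shown for orientation. HOXB-AS4 is a long noncoding RNA beside HOXB9 and starts in the fragment chr17:48627220-48632347 (promoter 48628448 to 48628747, plus strand). PRAC1, a small gene known from prostate and colon, starts in the fragment chr17:48721239-48726395, which also holds part of HOXB13 (promoter 48722469 to 48722768, minus strand). Neither window holds a GATC or a TGATNNAT, so no base is in capitals.
HOXB-AS4: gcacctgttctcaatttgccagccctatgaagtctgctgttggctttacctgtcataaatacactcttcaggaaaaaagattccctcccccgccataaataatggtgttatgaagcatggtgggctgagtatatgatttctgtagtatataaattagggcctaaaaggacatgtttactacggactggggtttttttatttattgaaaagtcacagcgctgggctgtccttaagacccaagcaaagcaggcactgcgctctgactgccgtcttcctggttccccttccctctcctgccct
PRAC1: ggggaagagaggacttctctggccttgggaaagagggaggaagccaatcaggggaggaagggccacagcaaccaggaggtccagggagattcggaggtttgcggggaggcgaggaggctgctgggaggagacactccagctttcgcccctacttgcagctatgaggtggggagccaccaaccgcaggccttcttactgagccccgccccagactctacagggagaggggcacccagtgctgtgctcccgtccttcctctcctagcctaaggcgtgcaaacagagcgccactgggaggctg
The fragment chr17:48578296-48581762, from HOXB4 into the annotated body of HOXB3, holds the microRNA gene MIR10A. Its mature 5' arm (48579904 to 48579926, minus strand) is printed with its seed, bases 2 to 8, in capitals.
hsa-miR-10a-5p: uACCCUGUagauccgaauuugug
That fragment had 12 calls, 0 of them in naive cells, DE or NE, 3 at day 14 and 6 in H9.

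The cluster had its fewest contacts in naive cells and its most in H9. Naive cells had 29 called HOXB contacts, which was 6.07% of the 478 rows against a background of 10.0% of all rows within chromosomes called. Day 1 had 42 (8.79% against 10.1%), and day 3 had 68 (14.2% against 12.4%). Day 5 had 47 (9.83% against 11.7%), day 7 had 46 (9.62% against 10.2%) and day 10 had 44 (9.21% against 10.3%). The counts were uneven over the transition, with a high at day 3, lower values from day 5 to day 10 and a second high at day 14. As a share of all calls within chromosomes, day 3 had 0.300% (Wilson interval 0.237 to 0.380). The intervals of days 5, 7 and 10 were 0.166 to 0.293, 0.185 to 0.329 and 0.175 to 0.315. They overlapped those of days 3 and 14. Overlap of intervals does not decide whether the days differed, and no test between conditions could be run. Day 14 had 66 (13.8% against 11.2%) and H9 had 128 (26.8% against 13.0%). A row is listed only if it reached 5 in some condition, so rows listed through H9 lower the HOXB row share of the other conditions. Shares of rows gained or lost depend on the same listing. DE had 84 (17.6% against 16.2%) and NE had 71 (14.9% against 17.9%), but all calls within chromosomes numbered 29563 in DE and 32672 in NE against 18272 to 23764 in the other conditions. As a share of all calls within chromosomes, HOXB contacts made up 0.159% in naive cells (Wilson interval 0.111 to 0.228), 0.322% at day 14 (0.253 to 0.409), and 0.539% in H9 (0.453 to 0.640). The share was 0.284% (0.230 to 0.352) for DE and 0.217% (0.172 to 0.274) for NE. The naive and day 14 intervals did not overlap, and those of day 14 and DE did.

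Contacts made by HOXB baits and contacts received by HOXB fragments differed in course. With the bait at a HOXB gene there were 22 calls in naive cells, then 36, 57, 34, 34, 35 and 44 at days 1, 3, 5, 7, 10 and 14. H9 had 67, DE 61 and NE 51. With the other end at a HOXB gene there were 7 in naive cells and 6, 15, 20, 19, 15 and 40 over the same days, then 93 for H9, 35 for DE and 24 for NE. The high at day 3 was thus mostly on the bait side, while at day 14 the bait-side and other-end counts were close and in H9 the other-end count was the higher.

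**Figure D1:**
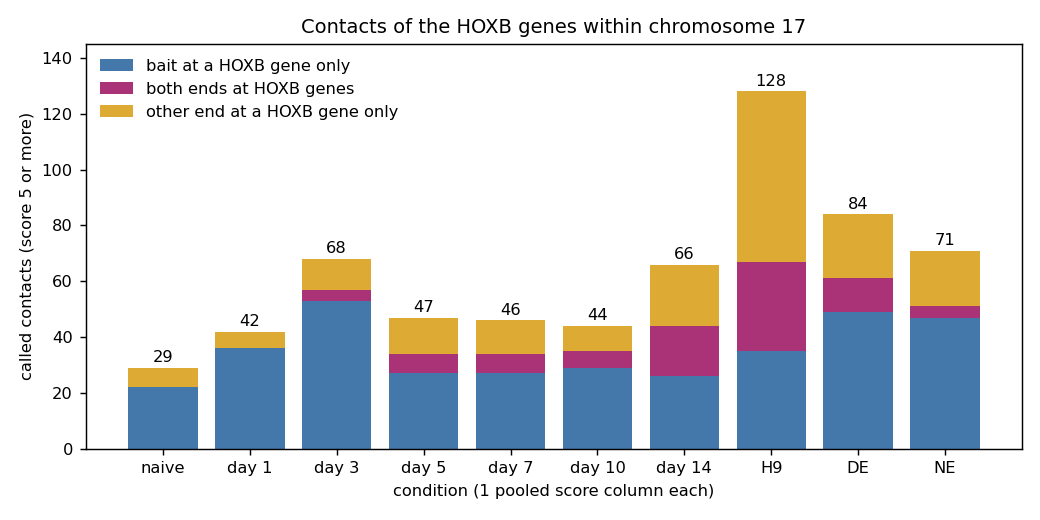
Called contacts (score 5 or more, vertical axis) of the HOXB genes in each condition, split by whether the bait, the other end or both ends lay at a HOXB gene; each bar is 1 pooled score column with no error. The total runs from 29 in naive cells to 128 in H9; DE (84) and NE (71) stand above day 14 (66) here but below it (44 and 38 against 60) when every condition is given the same number of calls.

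Contacts that began and ended inside the cluster made up their largest shares at day 14 and in H9. Of the called HOXB contacts, those with both ends inside the span from HOXB1 to HOXB13 numbered 0 of 29 in naive cells and 0 of 42 at day 1, counts that allow shares of up to 10.3% and 7.14%. Days 3, 5, 7 and 10 had 3, 7, 10 and 8 (4.41%, 14.9%, 21.7% and 18.2%). Day 14 had 31 of 66 (47.0%) and H9 had 54 of 128 (42.2%). DE had 15 of 84 (17.9%) and NE had 5 of 71 (7.04%), so the inside share was lower in both lineages than in both primed states. Both lineage shares lay within the range of days 3 to 10. With the same number of contacts called within chromosomes in each condition, inside counts were 29 of 60 at day 14 and 45 of 110 in H9. DE and NE had 8 of 44 and 3 of 38, so the difference held under this scaling. Calls between chromosomes, which the scaling leaves out, numbered 187492 in DE and 155291 in NE, against 25414 to 38446 in the other conditions. Whether that difference bears on the inside counts was not tested. Outside the span the counts were 29 in naive cells and 35 at day 14, a much smaller difference than in the total. The share of called HOXB contacts under 100 kb was 24.1% in naive cells, 38.1%, 26.5%, 42.6%, 52.2%, 43.2% and 60.6% at days 1, 3, 5, 7, 10 and 14, and 44.5%, 29.8% and 22.5% in H9, DE and NE. Over all contacts within chromosomes that share was 15.1% in naive cells, 17.9% at day 14, and 16.5%, 18.0% and 16.9% in H9, DE and NE.

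HOXB3, a hindbrain gene whose 41372 bp body spans the middle of the cluster, was at an end of most inside contacts, 22 of 31 at day 14, 37 of 54 in H9 and 14 of 15 in DE. HOXB3 also held 18 of the 33 HOXB baits and 14 of the 30 HOXB other-end fragments. These counts therefore do not set it apart from the other members. Contacts from a HOXB3 bait to a HOXB9 fragment numbered 0 in naive cells, at day 1 and at day 3, then 1, 4, 3 and 4 at days 5, 7, 10 and 14. H9 had 12, DE 4 and NE 1. The counts from HOXB3 to HOXB9 include the fragment with the start of HOXB-AS4, which reaches HOXB9 only through the 1 kb widening. All 3 at day 10 ended there. Contacts from HOXB3 baits to HOXB8 were called at day 14 (3), in H9 (1) and in DE (3), and in 0 of the other conditions. HOXB6 was met by HOXB3 baits 2 times at day 14, and 5, 3 and 0 times in H9, DE and NE.

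Among the anterior genes, HOXB1 to HOXB4, HOXB3 held the most contacts and the other 3 few. HOXB3 is long, with 18 baits and 14 other-end fragments, so its count cannot be set against that of the shorter genes. Its baits made 10 calls in naive cells, 26, 35, 19, 20, 21 and 25 at days 1, 3, 5, 7, 10 and 14, and 43, 43 and 31 in H9, DE and NE. Its fragments received 4 in naive cells, 4, 7, 11, 7, 5 and 17 over the days, and 25, 9 and 9 in H9, DE and NE. HOXB3 baits thus had equal counts in DE and H9, but with equal numbers of calls they had 21 in DE, 40 in H9 and 23 at day 14. HOXB3 fragments received fewer contacts in DE than at day 14 either way (5 and 14 with equal numbers of calls). HOXB1, with 4 baits, had 3 bait-side calls in naive cells, 2 at day 14, and 6, 6 and 3 in H9, DE and NE, and at most 1 call as the other end in any condition. HOXB2, which acts in the hindbrain beside HOXB1, had 0 rows on the bait side. As the other end it had 1 call in naive cells, 1 at day 14, and 8, 3 and 0 in H9, DE and NE. Of these, the 1 at day 14, 5 in H9 and all 3 in DE fell in chr17:48536747-48541741. That fragment holds no annotated gene and reaches HOXB2 only through the 1 kb widening. HOXB4, known for the growth of blood stem cells, received 0 contacts in naive cells, 4 at day 14, and 6, 0 and 0 in H9, DE and NE. All 17 rows of HOXB4 were also rows of HOXB3, whose annotated body contains it.

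The central genes, HOXB5 to HOXB8, received more contacts than their baits made at day 14 and in H9, DE and NE. As a group they received 4 calls in naive cells, 4, 8, 9, 10 and 5 at days 1, 3, 5, 7 and 10, and 20 at day 14. H9 had 30, DE 20 and NE 16. Their baits made 4 in naive cells, 6, 8, 6, 8, 3 and 5 over the days, and 7, 4 and 8 in H9, DE and NE, so up to day 3 the bait-side counts were no lower. HOXB5, which acts in neural crest and the enteric nervous system, received 3 in naive cells, 9 at day 14, and 10, 8 and 13 in H9, DE and NE. Its highest other-end count was in NE, though with equal numbers of calls it was 7 there and 8 in H9. HOXB6 received 0 in naive cells, 7 at day 14, and 14, 8 and 2 in H9, DE and NE, and its baits made 3, 3, 4, 2 and 6. HOXB7 received none up to day 7 (0 calls), 1 at day 10, 4 at day 14, and 6, 5 and 1 in H9, DE and NE, and 15 of these 17 calls fell in a fragment it shares with HOXB6. HOXB8, a gene of the spinal cord and of myeloid progenitors, received 1 in naive cells, 4 at day 14, and 6, 4 and 1 in H9, DE and NE. HOXB7 and HOXB8 had 0 rows on the bait side, so their contacts can only have been seen from baits elsewhere.

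The posterior genes, HOXB9 and HOXB13, received 0 contacts in naive cells and at day 1. Their other-end counts were 5, 7, 8, 7 and 11 at days 3, 5, 7, 10 and 14, then 38 for H9, 11 for DE and 8 for NE. HOXB9, which patterns the thoracic skeleton, received 0 up to day 3, 5, 6, 4 and 7 at days 5, 7, 10 and 14, and 24, 7 and 5 in H9, DE and NE. Of these, 2 at day 14 and 11, 4 and 2 in H9, DE and NE fell in the HOXB-AS4 fragment. That fragment reaches HOXB9 only through the 1 kb widening. HOXB13, a gene of the tail end and of the prostate that lies apart from its neighbours, received 5, 2, 2, 3 and 4 at days 3, 5, 7, 10 and 14, and 14, 4 and 3 in H9, DE and NE. Its 2 baits made 7 calls at day 10 and 8 at day 14 but 3 for H9, 2 for DE and 4 for NE. The bait-side count of HOXB13 was thus lower in H9 than at day 14, and its other-end count was higher. Most of the bait-side difference lay in the bait chr17:48729574-48729860, with 6 calls at day 10, 5 at day 14 and 1 in H9. That bait holds no annotated gene and reaches HOXB13 only through the 1 kb widening. The bait in HOXB13 itself had 3 calls at day 14 and 2 in H9.

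**Figure D2:**
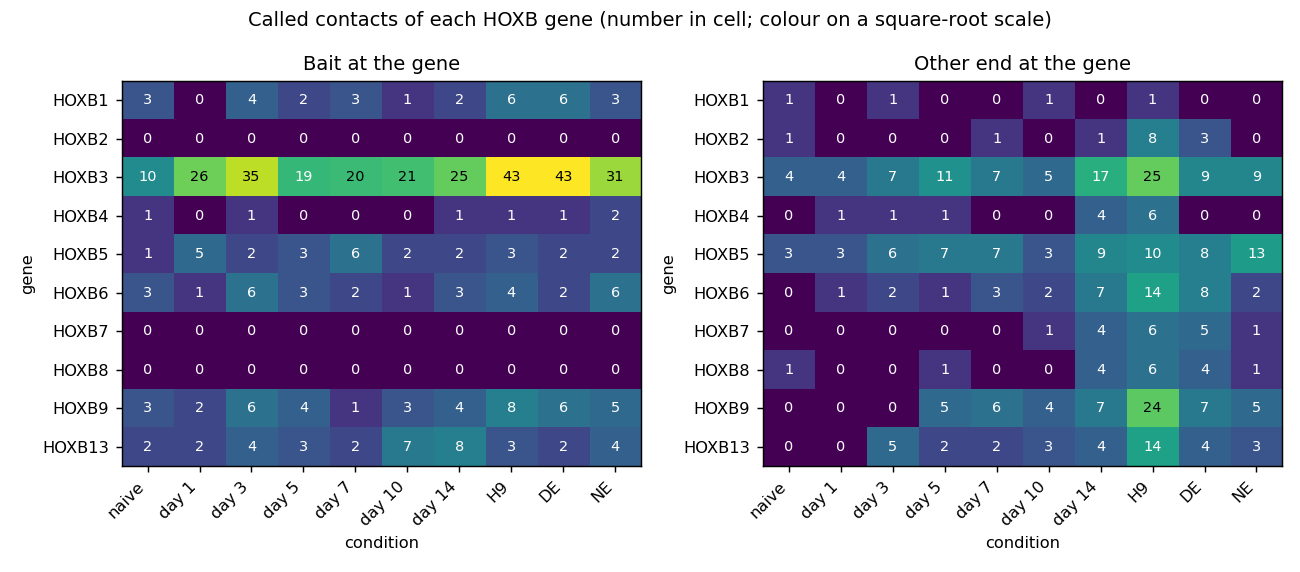
Called contacts of each HOXB gene (rows) in each condition (columns), with the bait at the gene on the left and the other end at the gene on the right; the number is the count and the colour its square root. A contact that touches 2 genes is counted for both, and the right panel is nearly empty in naive cells and at day 1 for HOXB6 to HOXB13 and fullest in H9.

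Within the cluster a few other-end fragments took many of the calls. The other-end fragment chr17:48586282-48591512, from the 5' part of HOXB3 to HOXB5, was met in 35 rows with 63 calls over the 10 conditions. It had 3 calls in naive cells, 2, 6, 7, 7, 3 and 9 at days 1, 3, 5, 7, 10 and 14, and 9, 8 and 9 in H9, DE and NE. It was thus met in every condition. The HOXB9 fragment chr17:48620942-48625755 had 0 calls from the naive state to day 3, 5 at day 14, and 12, 3 and 3 in H9, DE and NE. The fragment with the start of HOXB-AS4 had 0 calls up to day 3, 2 at day 14, and 11, 4 and 2 in H9, DE and NE. The fragment with PRAC1 and part of HOXB13 had 0 in naive cells, 4 at day 14, and 14, 4 and 3 in H9, DE and NE. The HOXB9, HOXB-AS4 and PRAC1 fragments thus had their highest counts in H9, while the fragment between HOXB3 and HOXB5 had as many at day 14 and in NE. A highest count in H9 was not particular to the HOXB9 and HOXB13 end. The HOXB6 fragment chr17:48597053-48602092 had 9 calls in H9 and 4 at day 14, and the fragment with MIR10A had 6 and 3. At HOXB13, the fragment chr17:48726396-48728436 had 2 calls at day 10 and 0 in H9. Among the baits, the most calls belonged to chr17:48581763-48582884 in HOXB3 and the noncoding RNA gene HOXBLINC, with 42. It had 2 in naive cells, 6, 7, 6, 3, 6 and 1 at days 1, 3, 5, 7, 10 and 14, and 2, 7 and 2 in H9, DE and NE.

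Where the partners lay, in zones defined after seeing the data, separated the conditions more clearly than the totals did. Contacts of HOXB1 to HOXB9 with fragments outside the cluster on the HOXB1 side numbered 25 in naive cells, 39, 55, 29, 29, 27 and 23 at days 1, 3, 5, 7, 10 and 14, and 23 for H9, 56 for DE and 58 for NE. Contacts with fragments past HOXB13 numbered 2 in naive cells, 1, 3, 6, 3, 0 and 2 over the days, and 43 for H9, 7 for DE and 1 for NE. Contacts with the stretch between HOXB9 and HOXB13 numbered 12 at day 14 and 14 in H9, against 0 to 2 in the other 8 conditions. With equal numbers of calls the HOXB1 side had 30 in DE and 28 in NE, above day 14 (20) and H9 (18) and below days 1 (39) and 3 (47). NE and DE thus had their contacts mainly on the HOXB1 side, day 14 had added contacts inside the cluster and up to HOXB13, and H9 also had contacts past it.

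**Figure D3:**
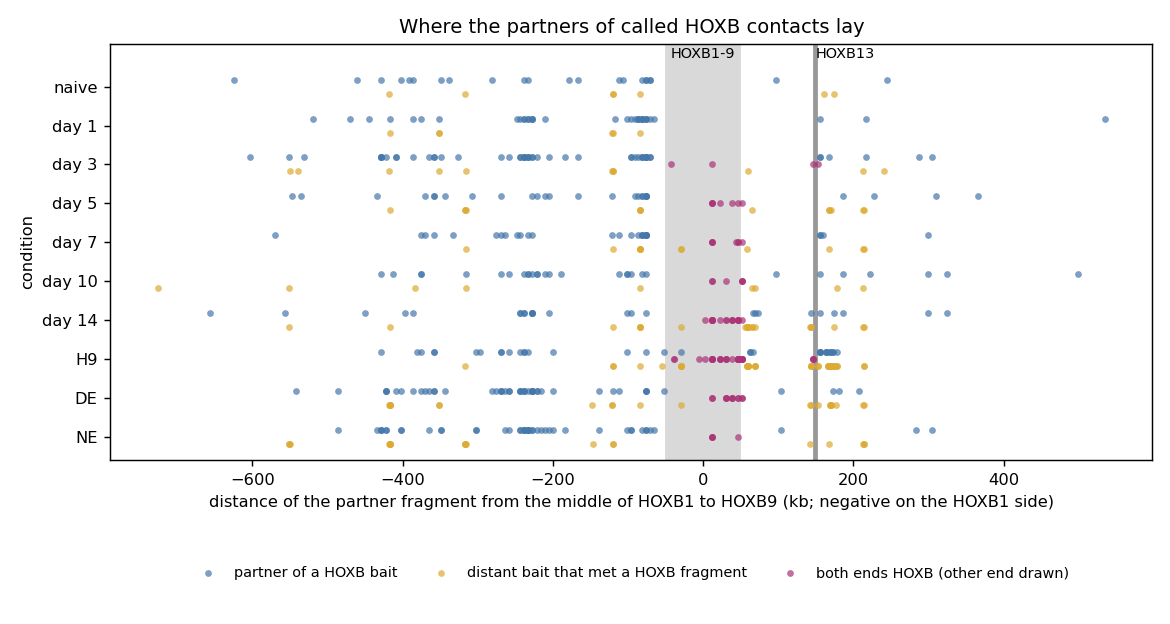
Position of the partner fragment of each called HOXB contact, in kb from the middle of HOXB1 to HOXB9 (negative on the HOXB1 side), by condition; each point is a contact, coloured by which end lay at a HOXB gene, and the grey bands are HOXB1 to HOXB9 and HOXB13. Points fill the left side in every condition, appear inside the band from day 3, and crowd the stretch past HOXB13 in H9.

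**Figure D4:**
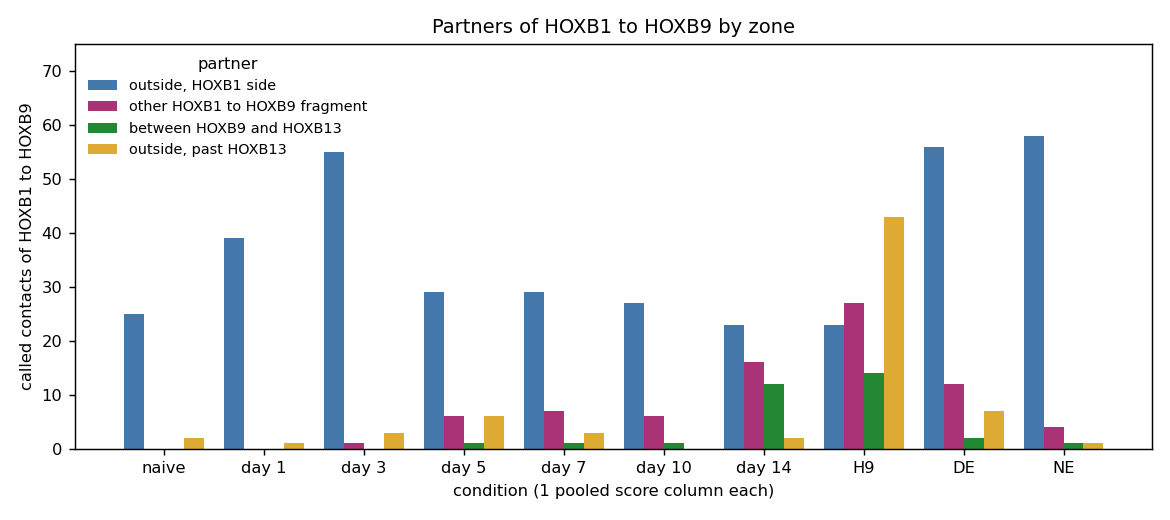
Called contacts of HOXB1 to HOXB9 (vertical axis) by the zone of their partner in each condition, without error bars since each is 1 pooled column. Partners outside on the HOXB1 side number 56 in DE and 58 in NE (30 and 28, below days 1 and 3, with equal numbers of calls), and partners past HOXB13 number 43 in H9 against 0 to 7 elsewhere.

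On the HOXB1 side the partners lay mainly in SKAP1, a 312 kb gene that encodes an adaptor protein of T cells and covers chr17:48133442-48445061. Of the member contacts, 183 rows had their far end there. Their calls numbered 13 in naive cells, 18, 33, 16, 12, 18 and 12 at days 1, 3, 5, 7, 10 and 14, and 16, 45 and 45 in H9, DE and NE. DE and NE had the most SKAP1 contacts, but with equal numbers of calls they had 25 and 26, against 29 at day 3 and 9 at day 14. The excess over day 14 was thus in both counts, and that over day 3 was not. The most used SKAP1 fragments were chr17:48336847-48341976 and chr17:48347487-48352906, with 19 calls each from 10 and 11 HOXB baits. A fragment between SKAP1 and HOXB1 that overlaps no annotated gene, chr17:48499067-48503237, was met by 12 HOXB baits with 27 calls. It had 2 in naive cells, 3, 5, 4, 5, 1 and 1 over the days, and 1, 3 and 2 in H9, DE and NE. The other genes at far ends had fewer calls over all conditions, counting contacts whose far end lay at no member. TTLL6, which encodes an enzyme that adds glutamate chains to tubulin, had 24, COPZ2, a subunit of the vesicle coat, 12, PRAC2 11 and PRAC1 8. Counted in this way, PRAC2 and PRAC1 had 0 calls up to day 10. The fragment they share with HOXB13 is left out of these counts, and it was met by a HOXB6 bait at day 3 with a score of 8.17.

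Many of the H9 contacts past HOXB13 came from baits lying there. The bait chr17:48747157-48747948 met HOXB fragments 8 times in H9, 2 in DE, 1 at day 5 and 0 times elsewhere, counting only other ends at the members. The bait chr17:48744982-48745683 did so 7 times in H9, 2 at day 5, 1 at day 7 and 0 times elsewhere. In all, 13 baits within 40 kb past HOXB13 had 53 calls in H9, 30 of them with HOXB1 to HOXB9, against 25 and 1 at day 14, 15 and 2 in naive cells, 20 and 5 in DE, and 16 and 1 in NE. With anything other than HOXB1 to HOXB9 these baits had 23 calls in H9 and 24 at day 14. The highest HOXB score in H9, 13.2, joined the bait chr17:48547601-48548178 next to HOXB3 to chr17:48730518-48735742 past HOXB13, 185 kb away. Its score was 2.83 at day 14 and at most 1.75 in the other 8 conditions.

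Most HOXB contacts were called in 1 condition, 381 of the 478 rows (79.7%), against 85.8% of all rows within chromosomes. In 2 or more conditions 97 were called (20.3% against 14.2%), and in 4 or more 11 (2.30% against 2.08%). The most recurrent joined a HOXB3 bait (chr17:48551434-48553111) to the fragment between HOXB3 and HOXB5, 36.6 kb away, and was called in 7 conditions. Its score was 2.66 in naive cells, 4.36, 4.75, 5.77, 5.46, 7.43 and 7.89 at days 1, 3, 5, 7, 10 and 14, and 8.51, 5.99 and 9.51 in H9, DE and NE. It was below the threshold up to day 3 and above it in all later conditions. The same bait met HOXB9, 71.1 kb away, with scores of 0.648 in naive cells, 0.615, 0.925, 2.90, 5.07, 4.58 and 7.50 over the days, and 6.22, 5.30 and 7.48 in H9, DE and NE. These 2 contacts had higher scores at day 14 than at any earlier time and stayed called in both lineages.

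Other recurrent contacts had another course. A bait on the HOXB1 side (chr17:48493197-48493476) met the fragment between HOXB3 and HOXB5 with scores of 5.08 in naive cells, 4.87, 4.11, 7.92, 5.19, 7.47 and 5.83 over the days, and 2.42, 1.53 and 2.71 in H9, DE and NE. The HOXB3 bait chr17:48581763-48582884 met that fragment between SKAP1 and HOXB1, 81.2 kb away, with scores of 8.95 in naive cells, 5.24, 4.43, 6.45, 5.13, 2.50 and 4.12 over the days, and 1.76, 2.57 and 1.87 afterwards. Both were lower in H9, DE and NE than in naive cells. A bait beside HOXB9 (chr17:48620339-48620941) met SKAP1, 281 kb away, with 8.24 at day 14, and 7.31, 7.47 and 7.15 in H9, DE and NE, against 0.851 to 4.25 at the earlier times. A pair of baits in TTLL6 met the fragment with PRAC1 and HOXB13, each in 6 conditions, with scores up to 9.28 in NE and 8.50 in H9.

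**Figure D5:**
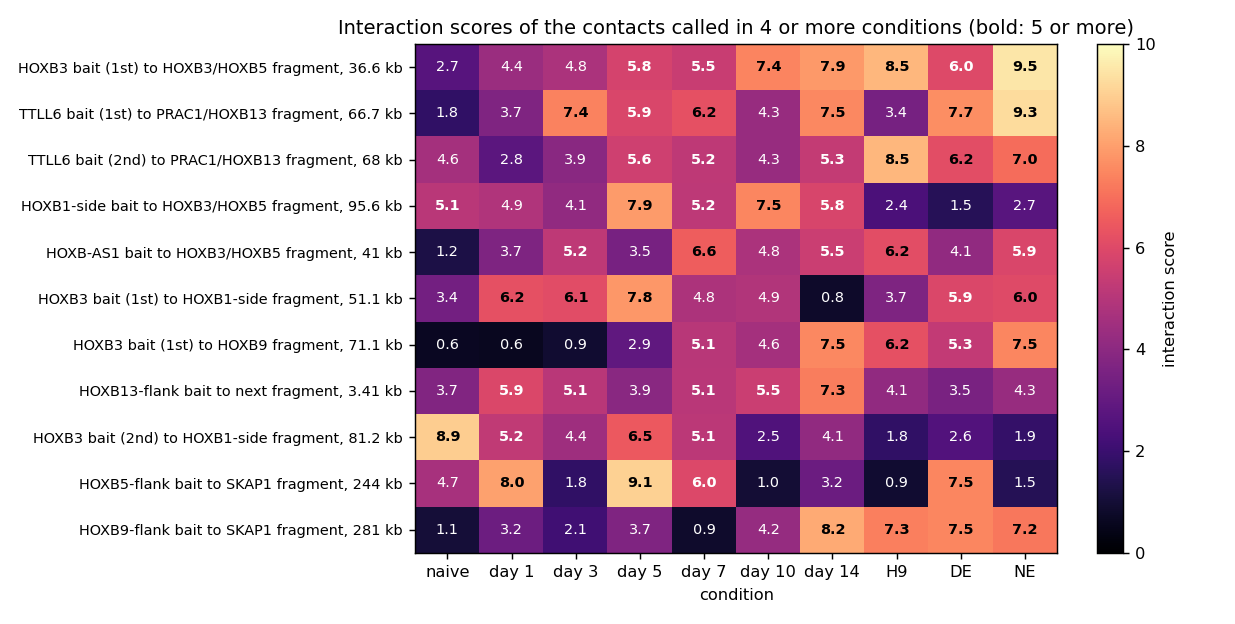
Interaction scores (number and colour) of the 11 HOXB contacts called in 4 or more of the 10 conditions, with the distance between their ends; scores of 5 or more are bold. The contact of a HOXB3 bait with HOXB9 goes from 0.6 in naive cells to 7.5 at day 14, while that of another HOXB3 bait with the HOXB1-side fragment goes from 8.9 in naive cells to 4.1.

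Naive and day 14 cells were compared to ask how the cluster's contacts differed between the naive and the primed state. Day 14 had 2.28 times the HOXB contacts of naive cells (exact interval 1.45 to 3.65), with 65 gained, 28 lost and 1 kept. The kept contact was 1 of 29 naive calls, against 1243 of 18272 over all rows within chromosomes, so few calls were kept in general. The gained contacts were 13.6% of the HOXB rows, against 10.6% of all rows within chromosomes, and the lost 5.86% against 9.34%. With the other end at a HOXB gene the ratio was 5.71 (2.53 to 15.1), and on the bait side it was 2.00 (1.17 to 3.50). Over all contacts within chromosomes the ratio was 1.12, and on chromosome 17 without the HOXB contacts it was 1.20. With contacts inside the span left out the HOXB ratio was 1.21. By gene, 8 of the 10 members had more contacts at day 14, HOXB1 had fewer (4 and 2) and HOXB2 the same number (1 and 1). Of all 14272 protein-coding genes with a row, 29.0% had more, 25.5% fewer and 6486 the same number. The members are not independent counts, since all rows of HOXB4 and HOXB7 were also rows of another member. Gains and losses of single contacts were ranked on asinh(score), which gives contacts at or near 0 on the lower side more weight than a plain difference. The largest gain so ranked joined HOXB1 to SP2, a transcription factor gene 610 kb away, with 6.68 at day 14 and 0 in the other 9 conditions. The largest loss so ranked joined HOXB1 to SKAP1, with 8.45 in naive cells and 0 at day 14.

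Between day 14 and H9, 2 primed states of different lines, the HOXB ratio was 1.94 (1.43 to 2.65), with 112 gained, 50 lost and 16 kept. The kept contacts were 16 of 66 day 14 calls, against 1762 of 20498 over all rows within chromosomes. Gains were 23.4% of the HOXB rows against 12.1% of all rows, and losses 10.5% against 10.3%. The ratio was 2.33 (1.59 to 3.46) at the other end and 1.52 (1.03 to 2.28) on the bait side, while over all contacts within chromosomes it was 1.16. All 10 members, which share contacts, had more contacts in H9, against 31.4% of all protein-coding genes with more and 24.9% with fewer. With equal numbers of calls 8 did, HOXB7 had the same number (4 and 4) and HOXB8 fewer (2 against 3). Contacts of HOXB1 to HOXB9 past HOXB13 had the largest ratio of the zones, 21.5 (5.60 to 183), and it was 4.70 at a score of 3 or more. The zone was chosen after seeing the data, and the interval does not cover that choice. Among the largest gains on the asinh scale were a PRAC2 bait with HOXB6 (0 at day 14 and 9.78 in H9) and a HOXB3 bait with HOXB9 (0 and 9.42).

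Between day 14 and DE the total of HOXB contacts was 1.27 times as large (0.911 to 1.78), but 0.733 times when the same number of contacts was called in each condition, so its direction depended on the scaling. Over all contacts within chromosomes the ratio was 1.44. Of the HOXB rows 15.9% were gained against 15.1% of all rows, and 12.1% were lost against 10.1%. Of 66 day 14 calls 8 were kept, against 2057 of 20498 over all rows within chromosomes. By gene 5 members had more, 3 fewer and 2 the same, against 37.2% of all protein-coding genes with more and 21.4% with fewer. With equal numbers of calls 1 member, HOXB1, had more. The zones differed in a way the total did not show. Contacts on the HOXB1 side were 2.43 times as many in DE (1.47 to 4.15), and 1.50 times with equal numbers of calls. That interval does not cover the choice of the zone after seeing the data. Contacts with both ends at HOXB genes were 12 against 18 (ratio 0.667, interval 0.293 to 1.46), and 5 against 16 with equal numbers of calls. On the asinh scale the largest gains joined SKAP1 to HOXB6 (0 at day 14 and 10.0 in DE) and PRAC2 to HOXB6 (0 and 9.07).

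Between day 14 and NE the total was 1.08 times as large (0.759 to 1.53), and 0.633 times with equal numbers of calls, while over all contacts within chromosomes it was 1.59. Gains were 13.4% of the HOXB rows against 16.7% of all rows, and losses were 12.3% against 9.98%. Kept contacts were 7 of 66 day 14 calls, against 2299 of 20498 over all rows within chromosomes. By gene 8 of the 10 members had fewer contacts in NE and HOXB1 (3 against 2) and HOXB5 (15 against 11) had more, against 19.0% of all protein-coding genes with fewer and 41.6% with more. Contacts with both ends at HOXB genes were 4 in NE against 18 (ratio 0.222, interval 0.0547 to 0.675), and 3 against 16 with equal numbers of calls. On the HOXB1 side NE had 2.52 times the contacts of day 14 (1.53 to 4.28), and 1.40 times with equal numbers of calls. This interval too leaves out the choice of the zone after seeing the data. On the asinh scale the largest gain joined a SKAP1 bait to the fragment between HOXB3 and HOXB5, 429 kb away (0 at day 14 and 10.8 in NE). The comparisons of H9, DE and NE all share the day 14 values.

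The other HOX clusters were measured by the same rule. In the conditions given here HOXC had more calls than HOXB and HOXD fewer, while HOXA had fewer in DE and NE and more in the other 3. HOXA had 48 calls in naive cells, 115 at day 14, and 134, 71 and 58 in H9, DE and NE. HOXC had 81, 129, 161, 174 and 176, and HOXD had 16, 49, 57, 52 and 49. Contacts with both ends at genes of the cluster were 39.1% of the calls of HOXA at day 14 and 12.7% in DE, 17.1% and 7.47% for HOXC, and 27.3% and 14.3% for HOXB. In HOXD they were 20.4% at day 14, or 10 of 49 calls, and 0 of 52 calls in DE. This share was lower in DE and NE than at day 14 in all 4 clusters. These differences between clusters were not tested.

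Genes that act with HOX proteins or upstream of them gave a mixed picture. Of 10 cofactor genes, whose proteins bind DNA together with HOX proteins, 3 had more contacts at day 14 than in naive cells, 1 fewer and 6 the same, against 29.0% of all protein-coding genes with more and 25.5% with fewer. Of these 6, PBX2 had no listed contact and PBX3, PBX4, PKNOX1 and TGIF1 had 0 calls in both conditions. MEIS1 had 8 and 23, MEIS2 22 and 48 and PKNOX2 18 and 28, and in H9 MEIS1 had 6 and PKNOX2 52. Against day 14, 2 of the cofactors had more and 2 fewer in H9, 5 more and 2 fewer in DE, and 5 more and 3 fewer in NE. The shares of all protein-coding genes with more and fewer were 31.4% and 24.9% in H9, 37.2% and 21.4% in DE, and 41.6% and 19.0% in NE. Of 14 upstream genes, among them CDX factors and those of retinoic acid signalling, 6 had more at day 14, 6 fewer and 2 the same, to be read against the same shares. Against day 14, 9 had more and 1 fewer in H9, 6 more and 3 fewer in DE, and 8 more and 4 fewer in NE. CDX2, an activator of posterior HOX genes, had 6 in naive cells, 17 at day 14, and 21, 9 and 9 in H9, DE and NE. ALDH1A2, which makes retinoic acid, had 4, 4, 7, 8 and 21. Outside 3 Mb of the cluster, the 5 genes most like the HOXB total over the 10 conditions among 5499 compared were CNPY1 (Pearson's r 0.939 of log2 counts), NHS (0.916), HMX2 (0.902), CHD5 (0.898) and KAZALD1 (0.894), as a description. These genes share the condition columns with HOXB, and with them the number of calls in each. CNPY1 had 13 calls in naive cells, 26 at day 14, and 76, 38 and 40 in H9, DE and NE, and HMX2 had at most 3 in any condition.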

How the data were processed

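Poised Enhancer Capture Hi-C was analysed from 1 deposited matrix with a column per condition, to which the labels assign both libraries of that condition. The values are CHiCAGO interaction scores, which the authors computed for each pair of fragments, per the labels. They were used as deposited, with no scaling between conditions. Coordinates are GRCh38, per the submitters' processing notes. The aligner, the caller's version, the fragment binning and the filters are not given in the sources used here. The highest score of each contact was 5.00 or more, so contacts under that score in all conditions are not listed. The deposited distance column, in bp and of no score, was used for contacts within chromosomes.

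Gene bodies came from RefSeq (GRCh38.p14), widened by 1 kb, and all 10 members matched. Counts are listings, so a bait pair listed from both baits counts once per listing. Shares carry Wilson 95% intervals and ratios exact (Clopper-Pearson) intervals. With 1 pooled column per condition, the 2 libraries give no spread. The overlap counts were tested on simulated data. Named contacts were those called in 4 or more conditions, the 3 highest scores per condition and the 3 largest gains and losses in asinh(score) per comparison, of which the text gives a part. Likeness used genes with 10 or more calls and log2(calls + 1). The members, lists and rules were chosen with earlier results of these data known. The zones of partners were defined after seeing the data. A correlation of the counts with the day was planned and is not reported, since no p is given for a sum over such members. Alternatives were scores of 3 and 10, equal numbers of calls, quantile-normalised scores, other listings, widenings of 0 and 5 kb, HOXB13 left out, the cluster's own span left out, and distances under 1 Mb. Python 3.11.15, pandas 2.3.3, numpy 2.4.6, scipy 1.17.1 and matplotlib 3.10.9 were used.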

Additional observations from a re-analysis of the deposited data

Results flagged for a closer look

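Contacts of HOXB genes with other chromosomes were outside the comparisons above and are given as a description, without a test. The counts were 36 in naive cells, 33 at day 1, 31 at day 3, 38 at day 5, 31 at day 7, 42 at day 10, 32 at day 14, and 44, 206 and 178 in H9, DE and NE. All calls between chromosomes numbered 187492 in DE and 155291 in NE, against 25414 to 38446 in the other conditions. As a share of all calls between chromosomes the HOXB contacts ranged from 0.0973% at day 3 to 0.140% at day 10, with 0.110% in DE and 0.115% in NE. HOXB baits were 33 of the 28903 baits, and these shares are to be read against that proportion. Contacts with a gene of another HOX cluster numbered 1 at day 7, 2 in H9, 1 in NE and 0 in the other conditions.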

How the results depend on the processing

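The ratio of day 14 to naive contacts stayed above 1 under the 10 alternatives that gave a value, and was 1.21 with contacts inside the span left out. That of H9 to day 14 stayed above 1 as well, and was 1.39 at a score of 3 or more. The ratio of DE to day 14 was below 1 with equal numbers of calls (0.733) and with quantile-normalised scores (0.754), and was 1.97 with the span left out. That of NE to day 14 was 0.633, 0.662 and 1.89 under the same settings and 0.982 with gene bodies not widened. For alternatives added after seeing the data, the ratio of H9 to day 14 past HOXB13 was 4.70 at a score of 3 or more, and on the HOXB1 side that of DE was 1.43 with quantile-normalised scores and that of NE 1.40 with equal numbers of calls and 1.43 with quantile-normalised scores. The cause of these changes was not tested. Of 72 alternative ratios 60 lay within the interval of the reported value. These 60 include the limit of 1 Mb, which could change no count because the longest HOXB contact spanned 706 kb. They also include the NE ratio of 0.982, whose direction turned, so the tally is no measure of stability. For single members, 20 alternatives (a score of 3 or more and equal numbers of calls) were run for day 14 against naive cells. There 0 turned the direction, and 6 changed the size of the difference by more than a set margin. HOXB2 had no direction to turn, and had 1 and 2 at a score of 3 or more. In H9 and DE equal numbers of calls did turn some: HOXB8 had 2 in H9 against 3 at day 14, and in DE HOXB3 had 25 against 33, HOXB7 1 against 4 and HOXB9 5 against 11. At a score of 10 or more, day 14 had 0 HOXB contacts, so no ratio could be had. No paired analysis was possible because the file holds 1 pooled column per condition, and no replicate could be left out for the same reason. Read depth was unknown, and a score of 3 or more is seen only for contacts that reached 5 in some condition.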
